A study of Mus musculus with 8 samples.

Results

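The genes described here encode 32 proteins that fold, modify and quality-check proteins in the endoplasmic reticulum (ER), or that sense unfolded proteins there. They were chosen by symbol from a list of ER chaperone and unfolded protein response genes, by a rule that uses no measured value. All 32 were found among the 31228 genes of the deposited expression table. The measurements are polyadenylated RNA sequencing of C57BL/6 mouse tissue and cultures, given as FPKM, that is, read numbers divided by the exon length of the gene and by the depth of the library. There were 4 groups: 1 library of extrahepatic bile duct (BD) epithelium, 1 of pancreatic duct (PD) epithelium, 3 of BD organoids and 3 of PD organoids. Organoids are 3-dimensional epithelial cultures, here grown in Matrigel from collagenase-digested ducts and sequenced after 3 to 4 passages. Their medium was first an expansion medium with Wnt3A and the small molecule Y27632, and both were withdrawn once hollow organoids had formed. EGF, R-Spondin-1, Noggin, FGF10, N-acetylcysteine, nicotinamide, B27 without vitamin A, Glutamax and penicillin-streptomycin stayed in it. The labels name no genetic change and no other treatment in any group, the age and sex of the mice are not given in the sources used here, and the labels do not say whether the 3 organoids of an organ came from different mice. All p-values therefore measure the spread between these libraries, which may be technical.

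Secreted and membrane proteins enter the ER through the Sec61 channel, lose their signal peptide, are glycosylated, and fold with the help of lumenal chaperones and disulfide isomerases. Proteins that fail to fold are pulled back out and degraded, a process called ER-associated degradation. When unfolded proteins accumulate, the membrane sensors IRE1 (encoded by Ern1 and its epithelial paralog Ern2), ATF6 and PERK start the unfolded protein response, in which spliced XBP1 and cleaved ATF6 switch on chaperone and degradation genes. Cells with heavy secretion, such as pancreatic acinar cells and plasma cells, are known for high levels of this machinery, whereas duct cells mainly secrete fluid and bicarbonate and, in places, mucus.

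ATF6 and XBP1 are known to act through short promoter elements. The ER stress response element (ERSE) consists of CCAAT and CCACG separated by 9 bases. It was searched on both strands in RefSeq promoter windows of build GRCm38.p6, each reaching from 250 bases before a gene's start to 50 bases after it. A window was at hand for 25 of the 32 genes. The element was present in 9 of these 25 (36%), against 37 of all 27025 genes with a window (0.137%) and 1 of 73 further genes of the same pathways. All 4 lumenal chaperone genes with a window (Hspa5, Hsp90b1, Calr and Canx) carried it, as did Pdia6, Dnajc3, Creld2, Syvn1 and Derl3. The element was first described from promoters of ER chaperone genes such as these, so its presence there is background rather than a finding. A shorter variant, ERSE-II (ATTGG and CCACG separated by 1 base), was searched after expression values had been seen. Its letters were in the windows of Herpud1 and Dnajb11 and in 12 genes in all (0.0444%). The letters TGACGTGG, a core of the unfolded protein response element, were in the windows of 0 of the 25 genes and of 193 genes overall (0.714%). Of the 73 further genes of the same pathways, 4 had these letters (5.48%). None of these motifs holds another whole, but CCACG, or CGTGG as it reads on the opposite strand, is part of all 3. The stretches below come from genes whose transcripts were higher in organoids (Canx, Pdia6), lower in them (Dnajc3, Syvn1, Herpud1, Derl3) or not past the test (Calr), and capitals mark both conserved parts of the element. Each is written 5′ to 3′ on the strand of its gene, and on that strand Calr and Derl3 have the element in reverse orientation. They lie upstream of the RefSeq start and outside the gene span of the deposited table, at chr8:84847060-84847108 (minus strand) for Calr, chr11:50325785-50325833 (minus) for Canx, chr12:17266476-17266524 (plus) for Pdia6, chr14:118937812-118937860 (plus) for Dnajc3, chr19:6046517-6046565 (plus) for Syvn1, chr10:75893227-75893275 (plus) for Derl3 and chr8:94386362-94386402 (plus) for Herpud1.
Calr: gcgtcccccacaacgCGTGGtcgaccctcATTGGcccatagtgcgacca
Canx: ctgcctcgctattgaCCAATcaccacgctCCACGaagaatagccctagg
Pdia6: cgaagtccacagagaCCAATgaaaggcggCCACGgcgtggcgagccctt
Dnajc3: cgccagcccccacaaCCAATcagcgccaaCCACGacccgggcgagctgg
Syvn1: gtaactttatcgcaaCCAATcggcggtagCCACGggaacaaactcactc
Derl3: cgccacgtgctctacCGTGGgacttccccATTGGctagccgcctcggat
Herpud1 (ERSE-II): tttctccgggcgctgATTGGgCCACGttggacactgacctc

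The libraries implied between 12876470 and 20828217 reads, so that a single read over 1 kb of exon was worth 0.0480 to 0.0777 FPKM. Both epithelial libraries held RNA of other cell types. The summed FPKM of 25 acinar genes was 30623 in BD and 64277 in PD epithelium, which is 7.57% and 16.4% of all FPKM, against 4.19 to 10.96 in the organoids, where 12 of the 25 were at 0 in every library. A list of 12 plasma cell genes summed to 3429 and 1775 in the epithelia and to 133 to 369 in the organoids, where it consisted almost wholly of Sdc1, a gene that epithelia also express, while Jchain stayed at or under 0.136 FPKM. The lists for fibroblasts (1681 and 1694, against at most 3.51), smooth muscle (1934 and 3421, against at most 0.686), endothelium (299 and 553, against at most 0.0734) leukocytes (357 and 347, against at most 11.9) and endocrine cells (90.0 and 203, against at most 1.20) moved the same way. Hepatocyte genes summed to 387 and 103 in the epithelia and 8.92 to 146 in organoids. Mitochondrial genes took 24.9% and 18.8% of FPKM in the epithelia and 5.43% to 7.29% in organoids. The 10 duct and simple epithelium genes summed to 2554 in BD epithelium, 628 in PD epithelium and 5525 to 11292 in organoids. Krt19, the keratin of duct cells, had 432 and 83.9 FPKM in the epithelia and 699 to 2097 in organoids, so none of the labelled ducts lacked it. Each difference between organoid and epithelium below runs along with these changes in cell makeup. In bulk RNA, fewer cells of a type and less RNA per cell cannot be told apart.

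The machinery as a whole was abundant. Summed over the 32 genes, it took 0.473% of all FPKM in BD epithelium and 0.455% in PD epithelium, and 0.676% to 0.811% in the organoids. Once acinar and mitochondrial genes were taken out of the total, these shares were 0.701% and 0.702% in the epithelia and 0.721% to 0.858% in organoids. P4hb, the disulfide isomerase also called PDI, had the highest level per exon length in BD epithelium and in both organoid groups. In PD epithelium Hspa5 stood first. Calr, Pdia3 and Hspa5 completed the top 4 with P4hb in every group. At the other end, Ern2 and Derl3 were the only genes of the set under 1 FPKM in some libraries, the remaining 30 reaching 1 FPKM in all 8.

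**Figure D1:**
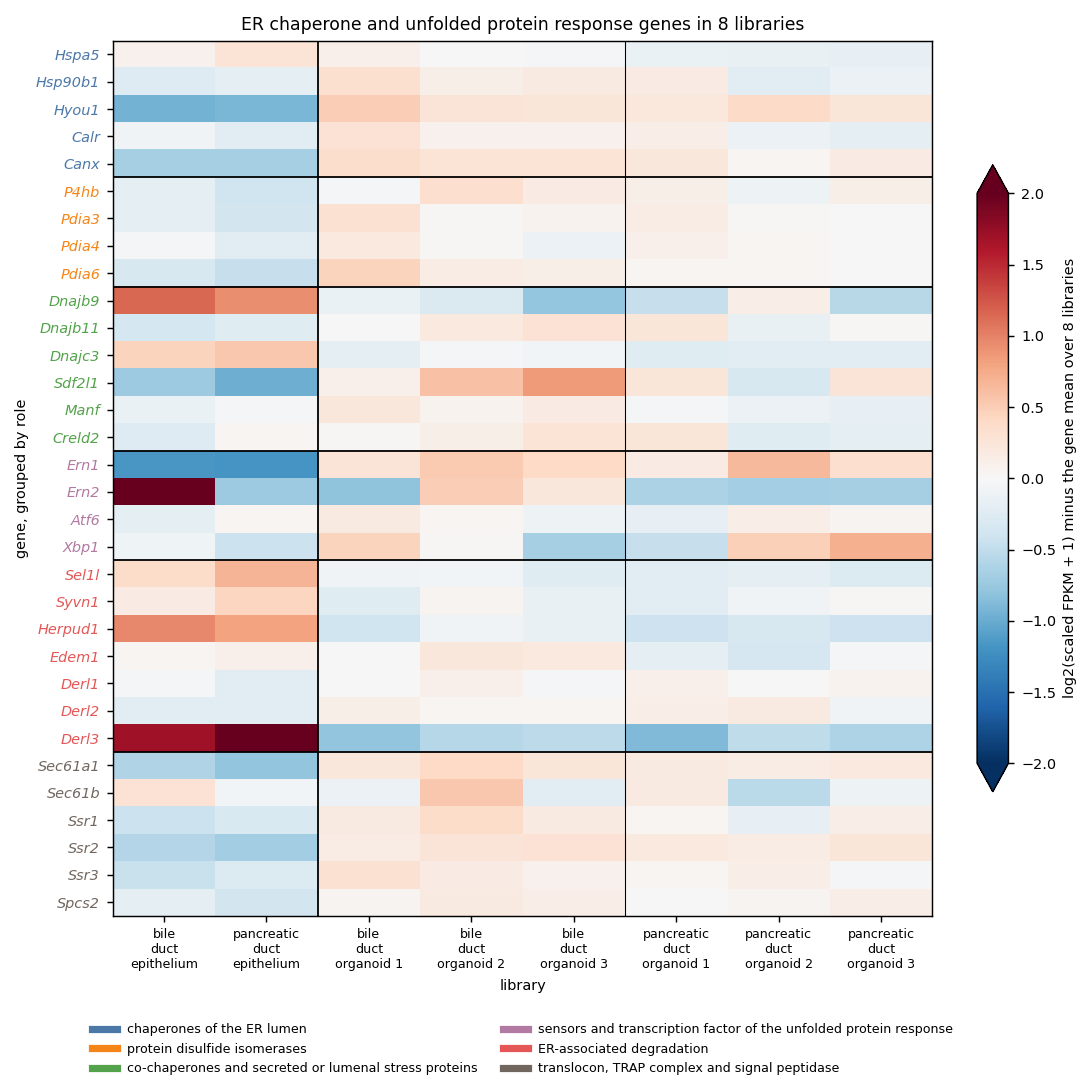
Level of each of the 32 genes (rows, grouped by role) in each of the 8 libraries (columns), drawn as log2(scaled FPKM + 1) minus the gene's mean over the libraries, with red for higher and blue for lower. The columns of the epithelia stand apart from the organoids for Hyou1, Ern1 and Canx (lower) and for Dnajb9, Herpud1 and Derl3 (higher), while the 6 organoid columns resemble each other except in rows such as Xbp1.

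The first comparison asked how organoids differ from the epithelia of the same organs. The labels do not link the organoids to these epithelial samples. Organoids had more mRNA for Hyou1, Canx, Ern1, Sec61a1 and Ssr2 and less for Dnajb9, Dnajc3, Sel1l and Herpud1, and these calls held in every setting that tested the genes. In a limma fit over all 8 libraries, with organ as a term, 19 of the 32 genes passed a Benjamini-Hochberg adjusted p of 0.05. Of these, 13 were higher and 6 lower in organoids. The 6 include Derl3, which passed the filter on low values only through the epithelia, where it is high, and so had to differ. Without it, 13 were higher and 5 lower of 31. Across all 14967 genes tested, 59.5% passed, 32.5% higher and 26.9% lower, so the 59.4% of these 32 genes that passed is the share seen across the transcriptome. The median log2 difference was 0.24 for the 32 genes and 0.11 for all genes. Organoids and epithelia did not overlap at all for 21 of the 32, against 63.9% of all genes. With 1 library per epithelium, the fit takes the spread of the epithelia to be like that of the organoids. Without the BD epithelium 9 of the 32 passed (5 higher, 4 lower), and without the PD epithelium 14 (9 higher, 5 lower). Over all genes the number past the threshold dropped as well, from 8899 to 4744 and to 4389. P4hb, Pdia3, Dnajb11, Syvn1 and Spcs2 lost their calls without either epithelium, and Pdia6, Sdf2l1, Ssr1 and Ssr3 without that of BD.

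How many of the genes passed depended on the scaling between libraries. The trimmed mean used here moved organoids against epithelia by -0.13 on the log2 scale. With FPKM as deposited, 18 were higher and 5 lower, where 36.8% of all genes were higher and 24.5% lower. With scaling factors computed without acinar and mitochondrial genes, 9 were higher and 6 lower, against 29.2% and 28.3% of all genes. Scaling to the upper quartile gave 6 higher and 10 lower, against 19.2% and 39.5%, and there the median of all genes itself fell to -0.26. Between 19 and 20 of the 32 genes lay above the median of all genes under each of these 4 scalings. Of the 32 genes, 13 had the opposite sign under upper quartile scaling. There were 16 settings of this comparison, of which 13 tested Derl3 and all but 1 tested Dnajc3.

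**Figure D2:**
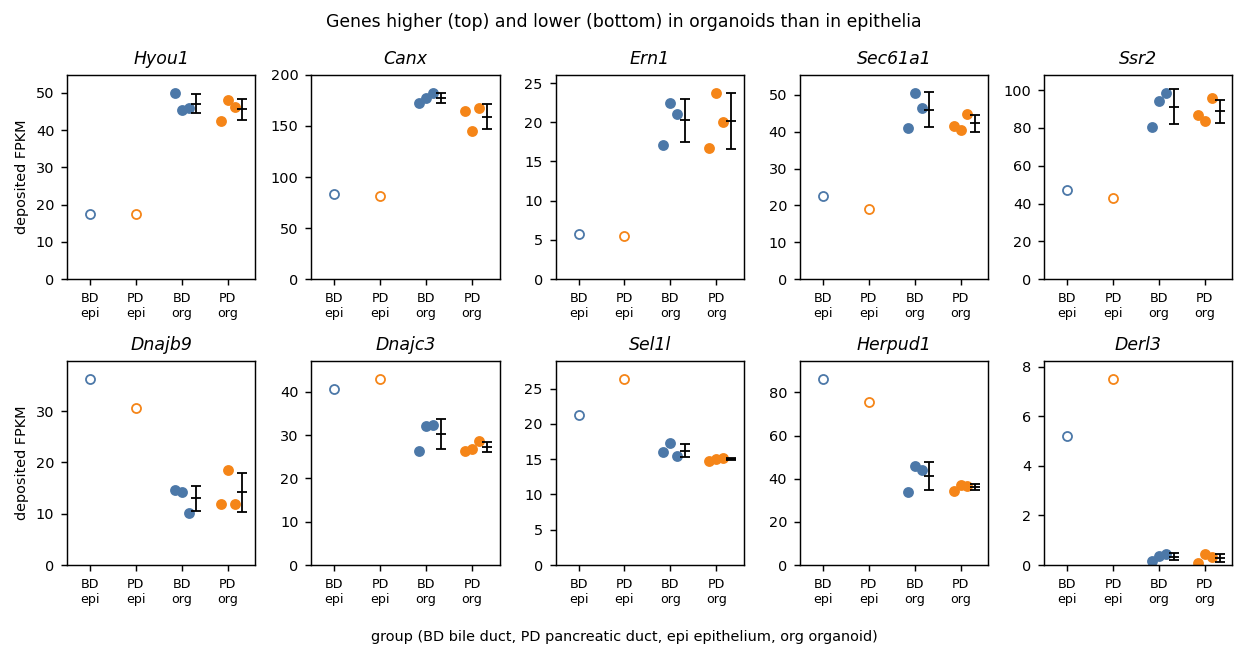
Deposited FPKM of the 9 genes past the threshold in every setting that tested them, and of Derl3, which passed the filter on low values only through the epithelia, in bile duct (BD, blue) and pancreatic duct (PD, orange) libraries. Open circles are the single epithelial libraries, filled circles the 3 organoids of an organ, and bars their mean ± SD. Every organoid lies above both epithelia in the upper row and below both in the lower row, as for Hyou1 with 42.4 to 50.0 FPKM in organoids and at most 17.5 in the epithelia.

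Among the lumenal chaperones, Hspa5 and Hyou1 went apart. Hspa5 encodes BiP, the ER member of the Hsp70 family, and its mRNA is the textbook marker of the unfolded protein response (ENSMUSG00000026864, chr2:34771970-34777547 in GRCm38). It had 206.9 FPKM in BD epithelium and 229.6 in PD epithelium, then 214.3, 217.0 and 214.6 in BD organoids 1, 2 and 3 and 188.9, 186.8 and 197.2 in PD organoids 1, 2 and 3. The BD organoids thus lay between the epithelia and the PD organoids below both. The log2 difference of organoids from epithelia was -0.24 (SE 0.12, limma adjusted p = 0.119), and under upper quartile scaling it passed as lower in organoids (adjusted p = 0.00214). Hyou1 encodes GRP170, a large Hsp70 relative that exchanges the nucleotide of BiP (ENSMUSG00000032115, chr9:44379490-44392369). It had 17.4 FPKM in BD and 17.5 in PD epithelium, against 50.0, 45.3 and 46.0 in BD organoids and 42.4, 48.0 and 46.3 in PD organoids. The groups did not overlap, and scaled means differed 2.43-fold (log2 difference 1.23, SE 0.10, limma adjusted p = 6.4e-05). Among the 32 genes ordered by level, Hyou1 moved from rank 25 and 26 in the epithelia to 13 and 12 in the organoids.

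Canx encodes calnexin, the membrane lectin that holds newly glycosylated proteins (ENSMUSG00000020368, chr11:50293961-50325673). Its level was 83.2 and 81.6 FPKM in BD and PD epithelium, 172.7, 177.3 and 182.2 in BD organoids and 165.0, 145.0 and 167.6 in PD organoids. The lowest organoid was well above both epithelia (log2 difference 0.89, SE 0.10, limma adjusted p = 0.000246). Calr, its soluble counterpart calreticulin, had 239 and 208 FPKM in the epithelia and 245 to 313 in organoids, a log2 difference of 0.20 (SE 0.13, adjusted p = 0.226 by limma). Hsp90b1, the ER Hsp90 known as GRP94, had 93.8 and 96.5 against 103 to 145, a log2 difference of 0.30 (SE 0.14, adjusted p = 0.105 by limma). In FPKM as deposited both had all organoids above both epithelia and passed (limma adjusted p = 0.0396 for Calr and 0.0244 for Hsp90b1), but not after scaling. Under upper quartile scaling both had the opposite sign (-0.23 and -0.12) and did not pass. Other genes share 15.7% of the exon bases of Hsp90b1, and whether counting used strand is not given in the sources used here.

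Of the 4 disulfide isomerases, which make and reshuffle disulfide bonds, 3 were higher in organoids by small amounts, where 32.5% of all genes were higher. Pdia6 had 62.5 and 55.9 FPKM in BD and PD epithelium and 85.5 to 110 in organoids (log2 difference 0.52, SE 0.11, limma adjusted p = 0.00547). P4hb had 250 and 212 FPKM against 283 to 397, and Pdia3, which works with the lectin chaperones, 191 and 165 against 234 to 276. Their log2 differences were 0.40 (SE 0.14, adjusted p = 0.0464) and 0.37 (SE 0.12, adjusted p = 0.0308) in the limma fit. None of the 3 kept its call under upper quartile scaling, where P4hb and Pdia3 took the opposite sign (-0.029 and -0.052). Pdia4 had 60.5 and 52.5 FPKM against 64.5 to 73.3 and did not pass (log2 difference 0.17, SE 0.11), although on FPKM as deposited it did (limma adjusted p = 0.03) and under upper quartile scaling its sign turned (-0.26, adjusted p = 0.052).

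The co-chaperones of BiP split. Dnajb9 encodes ERdj4, a J-domain protein that is a classical target of XBP1 and holds IRE1 in check (ENSMUSG00000014905, chr12:44205559-44210326). It was at 36.2 FPKM in BD epithelium and 30.6 in PD epithelium, and at 14.7, 14.2 and 10.1 in BD organoids and 12.0, 18.5 and 11.9 in PD organoids. Every organoid was below both epithelia, and the scaled mean was 2.68-fold lower (log2 difference -1.38, SE 0.24, limma adjusted p = 0.00198). Dnajc3, which encodes the co-chaperone p58IPK (ENSMUSG00000022136, chr14:118937932-118981702), had 40.7 and 42.9 FPKM in the epithelia, 26.4, 32.1 and 32.4 in BD organoids and 26.4, 26.8 and 28.7 in PD organoids. It was 1.60-fold lower in organoids, again without overlap (log2 difference -0.66, SE 0.09, limma adjusted p = 0.000864). Dnajb11, which encodes ERdj3, a soluble J-domain partner of BiP, went the other way, with 26.4 and 27.9 FPKM in the epithelia and 32.7 to 47.3 in organoids (log2 difference 0.40, SE 0.14, limma adjusted p = 0.0358, but -0.011 under upper quartile scaling). Sdf2l1, which forms a complex with ERdj3, had 22.4 and 18.2 FPKM against 31.8 to 77.3 (log2 difference 1.14, SE 0.23, limma adjusted p = 0.00461, but 0.0598 without the BD epithelium). The stress-induced secreted proteins MANF and CRELD2 did not pass. Manf had 21.2 and 22.5 FPKM in the epithelia and 22.6 to 29.7 in organoids, and Creld2 had 25.3 and 30.8 against 27.3 to 41.8. Under upper quartile scaling Manf passed as lower in organoids (-0.31, limma adjusted p = 0.0415), although its deposited values were higher in every organoid, and Creld2 took the opposite sign without passing (-0.27).

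Of the sensors, Ern1 was clearly higher in organoids. Ern1 encodes IRE1α, the kinase and RNase that splices Xbp1 mRNA (ENSMUSG00000020715, chr11:106394650-106487852). It had 5.69 FPKM in BD epithelium and 5.52 in PD epithelium, against 17.2, 22.5 and 21.01 in BD organoids and 16.7, 23.7 and 20.0 in PD organoids. The lowest organoid was above either epithelium, and scaled means differed 3.28-fold (log2 difference 1.55, SE 0.14, limma adjusted p = 9.9e-05). Its substrate Xbp1 (ENSMUSG00000020484, chr11:5520659-5525893) had 91.4 and 69.9 FPKM in the epithelia, 134.7, 108.2 and 68.6 in BD organoids and 73.9, 143.2 and 179.2 in PD organoids. Here the groups overlapped, with BD organoid 3 below both epithelia and PD organoid 3 highest (log2 difference 0.34, SE 0.39, limma adjusted p = 0.482, and -0.081 under upper quartile scaling). These gene-level values do not separate spliced from unspliced Xbp1. Atf6, the sensor that is cleaved in the Golgi, had 7.35 and 8.51 FPKM in the epithelia and 7.85 to 9.97 in organoids (log2 difference 0.09, SE 0.13, and -0.29 under upper quartile scaling).

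Ern2 encodes IRE1β, which is known from mucus-secreting epithelia (ENSMUSG00000030866, chr7:122169893-122186207). It stood at 11.3 FPKM in BD epithelium and 0.109 in PD epithelium, from 431 and 5 reads. BD organoids 1, 2 and 3 had 0.0568, 1.69 and 1.25 FPKM (3, 100 and 68 reads), and PD organoids 0.197, 0.153 and 0.178 (9, 8 and 11 reads). BD epithelium was thus far above every other library, and BD organoids 2 and 3 were above the rest. The limma fit of organoid against epithelium gave a log2 difference of -1.38 (SE 0.63, adjusted p = 0.0979). That value depends on the epithelium kept, being -2.84 for Ern2 without the PD epithelium (limma adjusted p = 0.00861) and 0.069 without that of BD (adjusted p = 0.931). Genes of intestinal mucous and Paneth cells moved along with Ern2 between the epithelia. The list of 12 summed to 3375 FPKM in BD and 688 in PD epithelium and to 83.4 to 223 in organoids, most of the PD sum being Zg16, which is on the acinar list too (446 and 636 FPKM in the epithelia). Without Zg16 the other 11 summed to 2929, 51.9 and 83.3 to 222. Its part in the level of Ern2 was not tested.

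In ER-associated degradation, 3 of 6 genes other than Derl3 were lower in organoids, 3 did not pass and 0 were higher, with a median log2 difference of -0.25. Across all genes 59.5% passed and 26.9% were lower, and of 18 further degradation genes 5 were higher and 3 lower. Herpud1 encodes HERP, a stress-induced membrane protein that brings the HRD1 ligase together with its partners (ENSMUSG00000031770, chr8:94386438-94395377). It had 86.1 FPKM in BD epithelium and 75.7 in PD epithelium, 33.8, 45.7 and 44.3 in BD organoids and 34.4, 37.1 and 36.8 in PD organoids. The highest organoid was far below both epithelia, a 2.30-fold difference of scaled means (log2 difference -1.18, SE 0.11, limma adjusted p = 8.4e-05). Sel1l, the adaptor of HRD1 (ENSMUSG00000020964, chr12:91806043-91849157), had 21.3 and 26.3 FPKM in the epithelia, 16.0, 17.3 and 15.4 in BD organoids and 14.8, 15.1 and 15.1 in PD organoids. These groups did not overlap either (log2 difference -0.70, SE 0.12, limma adjusted p = 0.00215). Syvn1, which encodes the HRD1 ligase itself, had 13.5 and 15.9 FPKM against 10.2 to 13.7. Its log2 difference was -0.40 (SE 0.12, limma adjusted p = 0.0276), but in FPKM as deposited the groups overlapped and the adjusted p was 0.137.

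Derl3 belongs to the Derlin family of degradation channel proteins and is known from strongly secreting cells (ENSMUSG00000009092, chr10:75893413-75895941). It had 5.22 FPKM in BD and 7.50 in PD epithelium, from 134 and 231 reads. In BD organoids 1, 2 and 3 it had 0.169, 0.377 and 0.436 FPKM (6, 15 and 16 reads), and in PD organoids 0.0977, 0.428 and 0.337 (3, 15 and 14 reads). All organoids were far below both epithelia, by a log2 difference of -2.58 on a scale with 1 FPKM added, which understates the difference of so weak a gene. It reached 1 FPKM in the epithelia alone and entered the fit only through them, so its test is not given, and it was not tested when either epithelium was left out. The acinar and plasma cell lists were lower in every organoid too, as were those of fibroblasts, smooth muscle, endothelium and leukocytes. Between the epithelia, Derl3 and the acinar list were higher in PD, whereas the plasma cell list was higher in BD (3429 against 1775 FPKM). Their part in the level of Derl3 was not tested. The relatives Derl1 and Derl2 had 39.1 and 34.0 against 41.6 to 47.9 FPKM and 6.29 and 6.13 against 7.93 to 9.12 FPKM. Both lay above the epithelia in every organoid and did not pass after scaling (Derl2 with a log2 difference of 0.29, SE 0.11, limma adjusted p = 0.0517), whereas on FPKM as deposited they did (adjusted p = 0.0373 for Derl1 and 0.00975 for Derl2). Under upper quartile scaling both took the opposite sign, Derl1 with a call (-0.25, adjusted p = 0.0491 by limma) and Derl2 without (-0.092). Edem1, which trims mannose from glycoproteins bound for degradation, overlapped between the groups (17.0 and 17.6 against 13.8 to 21.8 FPKM). It passed as lower in organoids under upper quartile scaling (-0.50, limma adjusted p = 0.0264).

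At the entrance to the ER, 5 of 6 genes were higher in organoids and 0 lower, with a median log2 difference of 0.49, where 32.5% of all genes were higher and 59.5% passed in either direction. Sec61a1 encodes the pore of the translocon (ENSMUSG00000030082, chr6:88503579-88518905). It had 22.4 and 19.0 FPKM in BD and PD epithelium, 41.1, 50.5 and 46.3 in BD organoids and 41.5, 40.5 and 44.9 in PD organoids. All 6 organoids were above both epithelia, and scaled means differed 1.94-fold (log2 difference 0.93, SE 0.09, limma adjusted p = 0.000101). Ssr2, a subunit of the translocon-associated TRAP complex (ENSMUSG00000041355, chr3:88575876-88588419), had 47.0 and 42.8 FPKM in the epithelia, 80.7, 94.4 and 98.4 in BD organoids and 86.7, 83.8 and 95.8 in PD organoids. The groups were again well apart (log2 difference 0.86, SE 0.09, limma adjusted p = 0.000146). A gene on the opposite strand shares 12.8% of the exon bases of Ssr2 and another 8.16% of those of Sec61a1. The TRAP subunits Ssr1 (19.4 and 20.8 against 25.1 to 38.2 FPKM) and Ssr3 (70.8 and 77.8 against 106 to 123) and the signal peptidase subunit Spcs2 (27.8 and 24.2 against 34.0 to 40.3) were also higher, with log2 differences of 0.50, 0.48 and 0.38. All 3 lost their call under upper quartile scaling, where Spcs2 took the opposite sign (-0.036). Sec61b, the small Sec61 subunit, overlapped between the groups (45.5 and 34.9 against 27.0 to 60.1 FPKM).

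**Figure D3:**
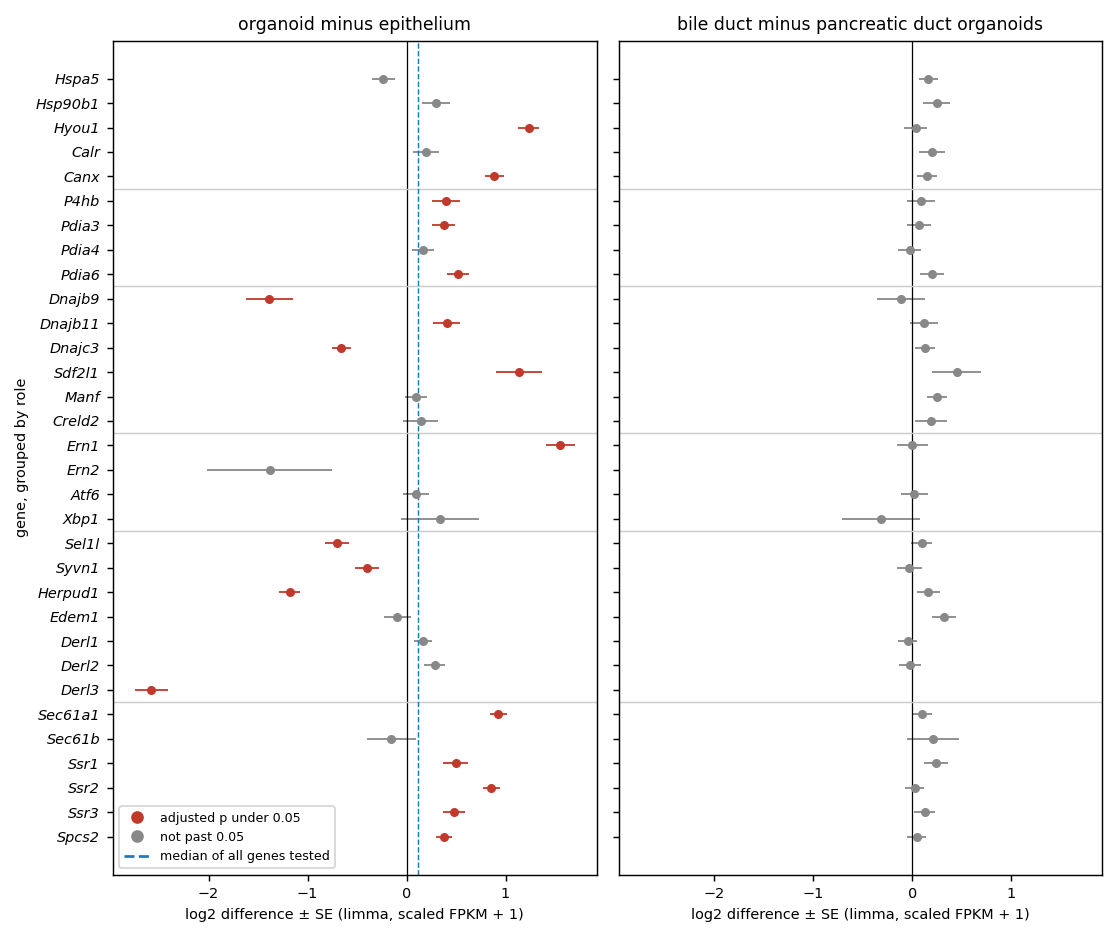
Log2 difference ± SE of each gene in the limma fits, organoid minus epithelium on the left and BD minus PD organoids on the right, with genes grouped by role. Red points pass an adjusted p of 0.05 and grey points do not, and the dashed line on the left is the median of all genes tested. On the left the differences run from -2.58 (Derl3) to 1.55 (Ern1), and on the right no point is red.

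Ratios between genes within a library do not depend on how libraries are scaled to each other. The pairs below were chosen after the values were seen. Each sets a gene called in 1 direction against a gene called in the other or not called. All were wholly separated between organoids and epithelia, which that choice made likely, so they add no further support. Hyou1 per Hspa5 was 0.0843 in BD and 0.0760 in PD epithelium and 0.209 to 0.257 in organoids. Dnajb9 per Dnajb11, a ratio of J-domain partners of BiP, was 1.37 and 1.096 in the epithelia and 0.213 to 0.567 in organoids. Herpud1 per Canx was 1.04 and 0.928 against 0.196 to 0.258, and Sec61a1 per Sel1l, entry channel per degradation adaptor, was 1.05 and 0.722 against 2.58 to 3.01. Among the sensors, Ern1 per Atf6 was 0.774 and 0.648 in the epithelia and 1.72 to 2.38 in organoids, while Xbp1 per Ern1 was 16.1 and 12.7 against 3.27 to 8.94.

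Genes that carry an ERSE were found among the higher, the lower and the uncalled. Besides Derl3 there were 8, of which 2 were higher in organoids (Canx and Pdia6), 2 lower (Dnajc3 and Syvn1) and 4 not past the threshold (Hspa5, Hsp90b1, Calr and Creld2), where 32.5% of all genes were higher and 26.9% lower.

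Other genes of the same pathways, 90 in all, were taken from fixed lists. Of the 85 tested between organoid and epithelium, 29 were higher and 12 lower in organoids (48.2%, against 59.5% of all genes). Without Fkbp14 and Bhlha15, which passed the filter on low values only through the epithelia, 29 were higher and 10 lower of 83. Across all genes 32.5% were higher and 26.9% lower, and the counts of each list below stand against these shares. The other scalings were not run for these lists, so their calls are those of the trimmed mean scaling alone. Glycosylation and glycan trimming had 11 of 17 higher and 0 lower, with a median log2 difference of 0.66. Widest among them were Mogs, the glucosidase that removes the first glucose from a new glycan, at 15.1 and 11.4 FPKM in the epithelia and 32.3 to 56.3 in organoids (log2 difference 1.60), and Tusc3, an oligosaccharyltransferase subunit, at 12.1 and 10.4 against 28.9 to 39.3 (1.35). Further ERAD genes had 5 of 18 higher and 3 lower, further translocon and signal peptidase genes 5 of 15 higher and 1 lower, and further folding enzymes other than Fkbp14 4 of 21 higher and 4 lower. In the last group Ero1l, the oxidase that recharges P4hb, was at 14.4 and 13.1 FPKM against 30.0 to 52.7 (log2 difference 1.34). Fkbp14, a collagen-related prolyl isomerase, was at 5.99 and 13.2 against 0.326 to 0.856 (-2.77). Among 12 further sensing and transcription genes other than Bhlha15, 4 were higher and 2 lower. Ppp1r15a, which encodes GADD34, the phosphatase subunit that reverses PERK signalling, had 41.5 FPKM in BD and 61.5 in PD epithelium and 5.23 to 7.45 in organoids (log2 difference -3.01, SE 0.13, limma adjusted p = 1.9e-06). Ddit3, which encodes CHOP, had 11.2 and 8.99 against 3.56 to 5.96 FPKM (-1.11, SE 0.14, limma adjusted p = 0.000512). Other genes of that arm, chosen after their values were seen, behaved differently. Ppp1r15b, the constitutive paralog of Ppp1r15a, was higher in organoids (22.5 and 19.2 against 28.1 to 43.8 FPKM, log2 difference 0.63, SE 0.16, limma adjusted p = 0.0124). Eif2ak3, which encodes PERK, had 7.82 and 7.43 FPKM against 7.74 to 11.7, and Atf4 120 and 115 against 101 to 137, and neither passed.

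The second comparison set the organs against each other in culture. Between BD and PD organoids, 30 of the 32 genes were expressed highly enough to be tested, Ern2 and Derl3 falling under 1 FPKM in most organoids. None passed limma's adjusted threshold, where 0% of 12094 genes did. At an unadjusted p under 0.05 there were 2, Manf and Edem1, against 2.57% of all genes. Every BD organoid lay above every PD organoid for 8 of the 30 (26.7%), namely Hspa5, Canx, Pdia6, Dnajc3, Manf, Edem1, Sec61a1 and Ssr1, and 0 were separated the other way. Among all genes 6.69% were separated, 2.95% with BD higher and 3.74% with PD higher. With FPKM as deposited 7 genes were separated in this way, and with upper quartile scaling 5, always with BD higher. Hspa5, Pdia6 and Manf were separated under each of the 4 scalings. The lack of calls does not show that the organs are alike in culture. Organoids did not all lie closest to their own organ. By chi-square per degree of freedom, BD organoid 1 was nearer PD organoid 2 (37.5) than BD organoids 2 and 3 (107 and 106). PD organoid 3 was nearest BD organoid 3 (30.7), whereas BD organoids 2 and 3 were nearest each other (17.6).

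These separations were small. The median log2 difference, BD minus PD, was 0.11 over the 30 genes and -0.0046 over all genes, with 23 of the 30 positive. For Hspa5 the deposited means were 215 ± 1.46 FPKM in BD and 191 ± 5.51 in PD organoids (SD, n = 3 each), and the log2 difference was 0.16 (SE 0.10). Manf (ENSMUSG00000032575, chr9:106838312-106891979), which encodes a secreted ER stress factor, had 28.1, 26.9 and 29.7 FPKM in BD organoids and 24.0, 22.6 and 23.4 in PD organoids. Other genes share 9.25% of its exon bases. Its log2 difference was 0.25 (SE 0.10, limma adjusted p = 1.00). Edem1 had 17.0, 21.6 and 21.8 FPKM against 15.3, 13.8 and 18.3 (log2 difference 0.32, SE 0.13, limma adjusted p = 1.00), and here the deposited values overlapped. The widest estimate, for Sdf2l1, was 0.45 with an SE of 0.25. Of the 83 further pathway genes tested between the organoid groups, 0 passed the adjusted threshold.

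The genes also differed in how much they varied among the cultures. Over the 6 organoids the SD of log2(scaled FPKM + 1) was 0.56 for Xbp1, larger than that of 91.0% of 8142 genes with a mean of at least 5 FPKM. Sdf2l1 followed with 0.40, Sec61b with 0.36 and Dnajb9 with 0.32. Xbp1 and Dnajb9, its known target, did not keep 1 order over the libraries: PD organoid 2 had the highest Dnajb9 (18.5 FPKM) and the second highest Xbp1 (143), whereas PD organoid 3 had the highest Xbp1 (179) and 11.9 FPKM of Dnajb9. Most of the set was steadier than the average gene, with a median SD of 0.14 against 0.20 for all 8142 genes. Those genes were not matched to the set in level, and the part of level in this gap was not tested. Derl1, Ssr2 and Spcs2 varied least, with SDs of 0.0592, 0.0604 and 0.0649.

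The third comparison set the 2 epithelia side by side. With 1 library each there is no replicate check, so only the size of a difference can be given. Of the 32 genes, 1 differed at least 2-fold on the log2(scaled FPKM + 1) scale (3.12%), against 13.3% of 15315 genes. That gene was Ern2, higher in BD by 3.54, and 8.73% of all genes differed in that direction. The filter here was 1 scaled FPKM in either epithelium. Ern2, at 0.118 scaled FPKM in PD, passed it only through BD, where it is high. Next in size were Derl3 (-0.48, lower in BD), Xbp1 (0.35 higher in BD), Sec61b (0.34 higher), Sel1l (-0.32) and Creld2 (-0.30). Acinar genes took 7.57% of FPKM in BD and 16.4% in PD epithelium, and their part in these differences was not tested. Among the further pathway genes, 5 of 87 differed at least 2-fold. Agr2, a disulfide isomerase of mucus-secreting cells, had 295 FPKM in BD and 0.852 in PD epithelium (log2 difference 7.35). The ER-bound transcription factors Creb3l4 (14.7 and 0.886 FPKM, 3.08) and Creb3l1 (31.2 and 12.5, 1.23) were also higher in BD. With 0.922 and 0.959 scaled FPKM in PD epithelium, Agr2 and Creb3l4 too passed the filter only through BD. Fkbp14 lay lower there (6.35 against 14.3 scaled FPKM, -1.06), followed by Fkbp11 (-0.92) and Creb3l2 (-0.69).

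**Figure D4:**
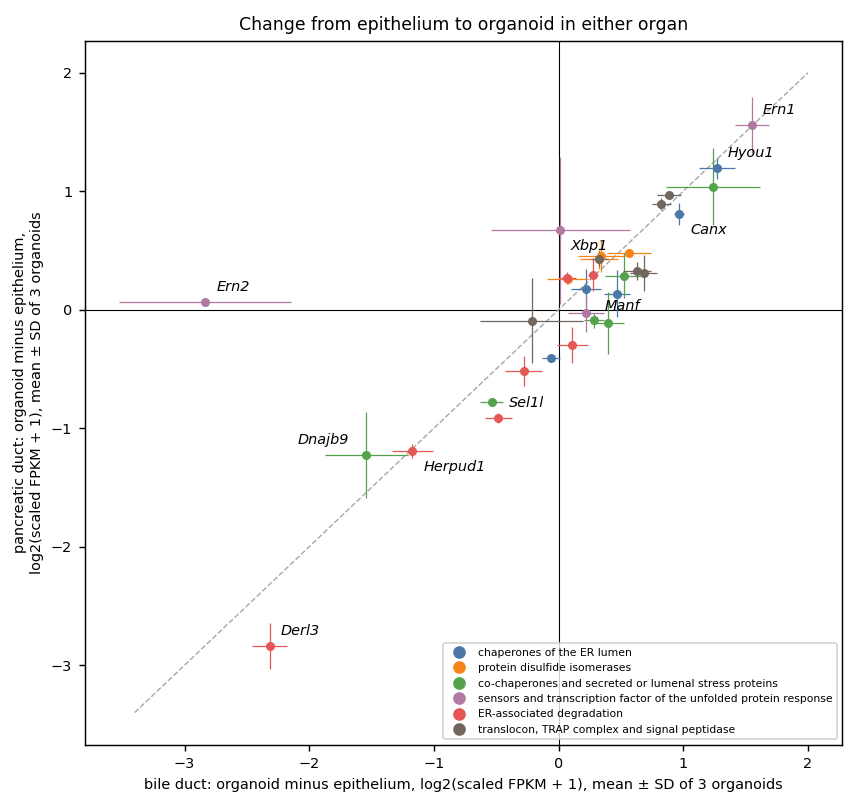
Difference of organoids from the single epithelium of their own organ for the 31 genes measured above the filter in both organs and for Ern2, in BD (horizontal axis) and PD (vertical axis), in log2(scaled FPKM + 1), with points for the mean and bars for the SD of 3 organoids. Points near the dashed diagonal differ by like amounts in both organs, as Ern1 does (1.55 and 1.56), while Ern2 lies far to the left (-2.83 in BD).

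Each organ was also followed on its own, from its single epithelium to its 3 organoids, again without a test and not independently of the pooled comparison above. In BD, 7 of 32 genes differed at least 2-fold with all organoids on 1 side (21.9%, against 38.3% of 15795 genes). In PD it was 6 of 31 (19.4%, against 39.8% of 15591 genes). The same 6 genes met the rule in both organs with this scaling. Among them, and in both counts, is Derl3, which passed the filter only through the epithelia, where it is high. Ern1, Dnajb9 and Herpud1 met the rule in both organs under the other 3 scalings too. Hyou1 lost it in both under upper quartile scaling, and so did Sdf2l1, which also lost it in PD without acinar and mitochondrial genes in the scaling, and in PD without organoid 1 or organoid 3. Hyou1 was higher by 1.27 ± 0.14 in BD and 1.19 ± 0.09 in PD (SD, n = 3 each), Sdf2l1 by 1.24 ± 0.38 and 1.04 ± 0.33, and Ern1 by 1.55 ± 0.13 and 1.56 ± 0.24. Herpud1 was lower in either organ (-1.17 ± 0.17 and -1.19 ± 0.06), as were Dnajb9 (-1.54 ± 0.33 and -1.23 ± 0.37) and Derl3 (-2.32 ± 0.14 and -2.84 ± 0.19). Ern2 was the seventh gene in BD, at -2.83 ± 0.69. Xbp1 had mean differences of 0.01 ± 0.56 and 0.67 ± 0.62, with wide SDs. Without PD organoid 1 the difference of Xbp1 in PD was 1.02 and met the 2-fold rule, and without PD organoid 3 it was 0.42. Sel1l was lower by more in PD (-0.91 ± 0.04) than in BD (-0.48 ± 0.11), a gap that was not tested. Of the further pathway genes, Mogs, Ero1l and Tusc3 were the widest higher ones in both organs. The widest lower ones in BD were Agr2 (-5.58), Ppp1r15a (-2.87) and Creb3l4 (-2.75), and in PD Fkbp14 (-3.20), Ppp1r15a (-3.16) and Prdx4 (-1.40).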

How the data were processed

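Gene expression was deposited by the authors as 1 table of FPKM values with 8 library columns, all of them used (0 columns left aside). No header names the unit, which was read from the values. The submitters' processing notes name Bowtie2 2.2.3, HISAT2 2.1.0, TopHat2 and HTSeq 0.6.0, with no role given, and strandedness of counting is not given in the sources used here. Gene positions are those of the deposited table, and 28617 of 31141 identifiers found in GENCODE M21 (GRCm38) had identical coordinates there. Multiplying FPKM by merged exon length gave whole reads, within 0.05 of a read, in all 8 libraries for 28310 genes (90.7%), from which depth and read numbers were taken. They cover counting error only. In 26 entries the symbol had become a date.

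The design had assumed raw read numbers and a test for them. Since FPKM was deposited, limma's moderated test with a trend took its place, on log2(scaled FPKM + 1), after scaling by a trimmed mean of log ratios (30% and 5% trimmed per side). The filter was 1 FPKM in at least 3 of 6 organoids, or in at least 2 of 8 libraries for organoid against epithelium (organ as a term), with Benjamini-Hochberg adjustment over all genes and a threshold of 0.05. Comparisons of single libraries used a 2-fold limit with no test. Values are deposited FPKM unless called scaled. All 32 genes are described, and of other pathway genes the 3 widest per direction and comparison with at least 10 scaled FPKM on the higher side and, where there was a test, past the threshold. The 32 genes, the pathway and marker lists and the tests were chosen with earlier results of these data known. The rule for the 32 genes itself uses symbols and no measured value. No pair of libraries was close enough to be a repeat (lowest chi-square per degree of freedom 17.6). Scripts were tested on simulated data. Promoter sequences are RefSeq's, from GRCm38.p6. The fits ran in limma 3.58.1 under R 4.3.3. Tables and plots were made with numpy 2.4.6, matplotlib 3.10.9 and pandas 2.3.3 under Python 3.11.15.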

Additional observations from a re-analysis of the deposited data

Results flagged for a closer look

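For 2 genes all organoids of 1 organ moved one way from their epithelium and all of the other organ the opposite way. The same was seen for 525 of 14967 genes (3.51%). This difference was not tested, and each organ has 1 epithelium. Manf was higher by 0.28 ± 0.08 in bile duct organoids and differed by -0.09 ± 0.06 in pancreatic duct organoids on the log2(scaled FPKM + 1) scale (SD, n = 3 each), a gap of 0.38 between the organs. In FPKM as deposited the directions of Manf were not opposite, as all organoids of both organs were above their own epithelium. In those values Hspa5 had opposite directions instead, with 0.06 in bile duct and -0.27 in pancreatic duct. Ern2 fell by 2.83 in bile duct, while the 3 pancreatic duct organoids had 8 to 11 reads against 5 in their epithelium, a gap of -2.90. The pancreatic duct side of Ern2 lies under the filter and rests on these few reads, so its direction there is not established.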

How the results depend on the processing

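Upper quartile scaling turned the sign of 13 genes between organoid and epithelium. The 6 that passed under either scaling were P4hb (-0.029), Pdia3 (-0.052), Dnajb11 (-0.011), Manf (-0.31, limma adjusted p = 0.0415), Derl1 (-0.25, adjusted p = 0.0491) and Spcs2 (-0.036), and the other 7 lay between -0.29 and -0.081. Under it 6 of the 32 genes were higher and 10 lower. It left 1 gene higher in bile duct and 1 in pancreatic duct against the own epithelium, with 5 lower in pancreatic duct, where FPKM as deposited gave 5 higher. Leaving out 1 library at a time gave 9 to 19 of the 32 genes past the threshold (5 to 13 higher, 4 to 6 lower) and 4389 to 9248 genes in all, lowest without either epithelium. Between organoid groups these leave-outs gave 0 to 11 genes, 11 without pancreatic duct organoid 3, and voom on rebuilt reads 1 gene, none of the 32. A minimum of 10 FPKM, which tests fewer genes, gave 4717 genes between organoid and epithelium, 862 between epithelia, 3098 in bile duct and 3377 in pancreatic duct. With replicate number as a replicate block, 0 genes passed between organoid groups. Same-numbered organoids did not deviate together (correlations -0.10, -0.44 and 0.48), so the number is not read as pairing. Of the 13 genes higher in organoids, 5 held in every setting that tested them, and 4 of the 5 lower ones other than Derl3. Weak genes are limited by depth: at 3 to 16 reads, Derl3 in organoids has wide counting error. The 5 genes Dnajc3, Creld2, Syvn1, Derl1 and Ssr1 did not give whole reads and were left out of voom.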
